A study of Mus musculus with 11 samples.

Results

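The Mediator complex carries signals from DNA-bound transcription factors (TFs) to RNA polymerase II at gene promoters. Its subunits form a head and a middle module that contact the polymerase, a tail module that many activators bind, the subunit MED14 that runs through them as a scaffold, and a separable kinase module of CDK8 or its paralogue CDK19, cyclin C, MED12 and MED13. Almost all cells make the core subunits, so their genes are usually counted as housekeeping genes, with promoters rich in CpG dinucleotides. The genes were chosen by symbol from the protein-coding genes of the GENCODE M21 annotation of mouse, as Med followed by a number with an optional letter, together with Ccnc, Cdk8 and Cdk19. This gave 33 genes of 21829 protein-coding genes, on the GRCm38 (mm10) build. The group itself was selected on an earlier reading of its promoter peaks in these data, so the shares given here are a description, with no test, and nothing is supported by them.

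Binding of Runx3 and Brn3a was profiled by CUT&RUN, in which an antibody guides micrococcal nuclease to its target and the released DNA is sequenced. The cells were TrkC neurons, the future proprioceptors that report muscle stretch, from dorsal root ganglia (DRG) of E12.5 mouse embryos. All 11 libraries came from 1 genotype, Runx3-BAC-GFP-CB6 transgenic mice, whose GFP is driven by a bacterial artificial chromosome of the Runx3 locus, and from cells sorted for that GFP. There was no group without Runx3 or Brn3a, and the libraries comprised 3 for Runx3, 4 for Brn3a, 3 for acetylated lysine 27 of histone H3 and 1 made with normal rabbit serum. Runx3 is the RUNX-family TF of these neurons, whereas Brn3a (gene Pou4f1) is a POU-homeodomain TF shared by most sensory neurons.

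Each antibody is represented by 1 consensus list of peak positions, and a peak had to be found in at least 2 of 3 libraries for Runx3 (25885 peaks) or at least 2 of 4 for Brn3a (32887 peaks). The lists carry no height and no value per library, so that there is no replicate error and the depth is unknown. Beside each Runx3-list peak stands its number of RUNX binding sites (RBS), and beside each Brn3a-list peak whether it holds a Brn-family motif (V$BRNF). Promoter peaks of Runx3 were found at 4 of 7 marker genes of sensory neurons (Etv1, Isl1, Runx3 and Tubb3), beside 36.2% of all protein-coding genes. Those of Brn3a were found at 3 of 7 (Etv1, Pou4f1 and Runx3), beside 20.7%. Ntrk3, the gene of TrkC, and Prph had none in either list. Neither list had one at 4 markers of glia and neural crest or 5 of endothelium, blood and mesenchyme. A peak position is no measure of expression, and the purity of the sorted cells was not tested.

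The RBS of the Mediator promoters are shown first, since they are the words that RUNX proteins are known to bind. In each window of 26 bases the RBS is in capitals with 10 bases on each side, written 5′ to 3′ on the strand on which it reads as the word TGCGGC, as the word TGCGGT, as the word TGTGGC or as the word TGTGGT. Shown are the members with most RBS in 1 promoter peak of their module, with ties, and the RBS of peaks that overlapped a Brn3a-list peak. The label "overlapping Brn3a" refers to the peak and not to the RBS. Of these RBS only that of Med27 lay wholly inside the Brn3a-list peak. The RBS of Med13 crossed the edge of that peak, and those of Med7 and Med26 lay outside it.
Med14 (scaffold), chrX:12761727-12761752: ccgcctgagaTGCGGCcctggagcct
Med14, chrX:12761759-12761784: cccgcctcggTGCGGTcaccgagccc
Med14, chrX:12761874-12761899: ctcgcctcccTGCGGCcggccggccc
Med14, chrX:12762263-12762288: accgtcccgcTGCGGTcgcctaggcg
Med14, chrX:12762342-12762367: aaaggcggccTGCGGCgaccgcgcgc
Med15 (tail), chr16:17722876-17722901: ggcctgtcgcTGTGGTagaggcggcg
Med15, chr16:17722987-17723012: tctctctttcTGTGGCgcgcatgcgt
Ccnc (kinase), chr4:21727486-21727511: tctggtctagTGCGGTtttcttttgg
Ccnc, chr4:21727747-21727772: ttcctccggcTGCGGTggctgtggag
Med22 (head), chr2:26910604-26910629: tctcggagccTGCGGTccggtgccag
Med22, chr2:26910757-26910782: tcgcgatatcTGCGGCcacttactta
Med29 (head), chr7:28392634-28392659: cgctgcagccTGTGGCtggggcgcag
Med29, chr7:28392934-28392959: ctgaaggcctTGCGGCcaggagcgac
Med1 (middle), chr11:98192999-98193024: ggtacaccgcTGCGGCgagccaatcc
Med4 (middle), chr14:73510003-73510028: ccgcccctccTGTGGCtagctcacac
Med7 (middle, overlapping Brn3a), chr11:46437024-46437049: agacttaggcTGCGGTcgccaaccgc
Med26 (middle, overlapping Brn3a), chr8:72548275-72548300: cgacgctgcgTGCGGCgcgggttacc
Med27 (head, overlapping Brn3a), chr2:29346655-29346680: gatcataactTGTGGTcaactctctc
Med13 (kinase, overlapping Brn3a), chr11:86358278-86358303: agctggtcccTGTGGCcgccattaaa

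Co-bound regions are shown next, as the positions at Mediator genes that stood in both lists. Each is the part shared by the Runx3-list and the Brn3a-list peak without untranslated sequence, on the strand of the gene, with CCAAT on either strand in capitals. Of the 9 co-bound genes Med28 is left out, since its shared part is nearly all untranslated sequence.
Med19 (V$BRNF in the Brn3a list), chr2:84678238-84678358: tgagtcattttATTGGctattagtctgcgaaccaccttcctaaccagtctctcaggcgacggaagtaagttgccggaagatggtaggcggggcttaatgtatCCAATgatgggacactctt
Med21 (V$BRNF in the Brn3a list), chr6:146642378-146642546: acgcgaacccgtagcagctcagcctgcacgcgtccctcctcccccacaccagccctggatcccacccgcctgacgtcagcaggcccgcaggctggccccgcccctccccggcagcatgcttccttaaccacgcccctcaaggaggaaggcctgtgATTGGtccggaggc
Med27, chr2:29346661-29346818: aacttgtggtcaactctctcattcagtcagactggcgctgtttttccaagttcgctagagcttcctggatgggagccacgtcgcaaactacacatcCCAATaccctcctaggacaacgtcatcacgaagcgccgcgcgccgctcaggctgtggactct
Med30, chr15:52712267-52712426: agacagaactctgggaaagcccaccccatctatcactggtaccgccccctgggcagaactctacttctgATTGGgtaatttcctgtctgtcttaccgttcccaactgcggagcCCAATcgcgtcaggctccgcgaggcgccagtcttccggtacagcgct
Med6, chr12:81595007-81595262: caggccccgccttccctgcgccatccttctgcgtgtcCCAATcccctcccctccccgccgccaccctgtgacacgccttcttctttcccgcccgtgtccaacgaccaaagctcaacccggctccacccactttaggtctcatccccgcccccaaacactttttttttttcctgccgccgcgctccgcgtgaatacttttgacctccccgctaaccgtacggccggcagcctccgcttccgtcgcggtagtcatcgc
Med7, chr11:46436822-46436924: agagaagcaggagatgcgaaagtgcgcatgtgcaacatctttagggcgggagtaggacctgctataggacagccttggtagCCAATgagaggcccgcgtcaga
Med13, chr11:86358291-86358442: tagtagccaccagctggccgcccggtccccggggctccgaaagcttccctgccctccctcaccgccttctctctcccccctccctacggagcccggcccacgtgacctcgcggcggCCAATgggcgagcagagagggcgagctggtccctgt
Med26, chr8:72548312-72548499: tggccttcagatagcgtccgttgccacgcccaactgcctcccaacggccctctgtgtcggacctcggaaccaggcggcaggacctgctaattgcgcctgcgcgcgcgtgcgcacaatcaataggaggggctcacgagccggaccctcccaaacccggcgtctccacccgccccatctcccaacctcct

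Runx3-list peaks lay in the promoters of most Mediator genes and Brn3a-list peaks in those of fewer. A promoter peak had its centre within 1 kb of the start (TSS) of any protein-coding transcript of the gene. Of the 33 genes, 27 (81.8%, Wilson 95% interval 65.6% to 91.4%, counting error only) had a Runx3-list promoter peak, beside 36.2% of all protein-coding genes. For the Brn3a list these values were 11 of 33 (33.3%, 19.8% to 50.4%) and 20.7%. Both lists had a promoter peak at 10 Mediator genes (30.3%), beside 14.8% of all genes, and at 9 of these (27.3%, beside 13.2%) the peaks shared at least 1 bp and are called co-bound. Runx3 without Brn3a was found at 17 Mediator genes (51.5%, beside 21.4% of all genes). Brn3a without Runx3 was found at Med8 alone (3.03%, beside 5.95%). Neither list had a promoter peak at 5 (15.2%, beside 57.9%), namely Med9, Med13l, Med17, Med18 and Med20. Among the genes with a Brn3a-list promoter peak, 10 of 11 Mediator genes also had one of Runx3, beside 71.3% over all genes. With peaks at least as wide as the median of their list, 21 Mediator genes kept a Runx3-list promoter peak and 5 a Brn3a-list one, beside 23.8% and 11.9% of all genes.

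**Figure D1:**
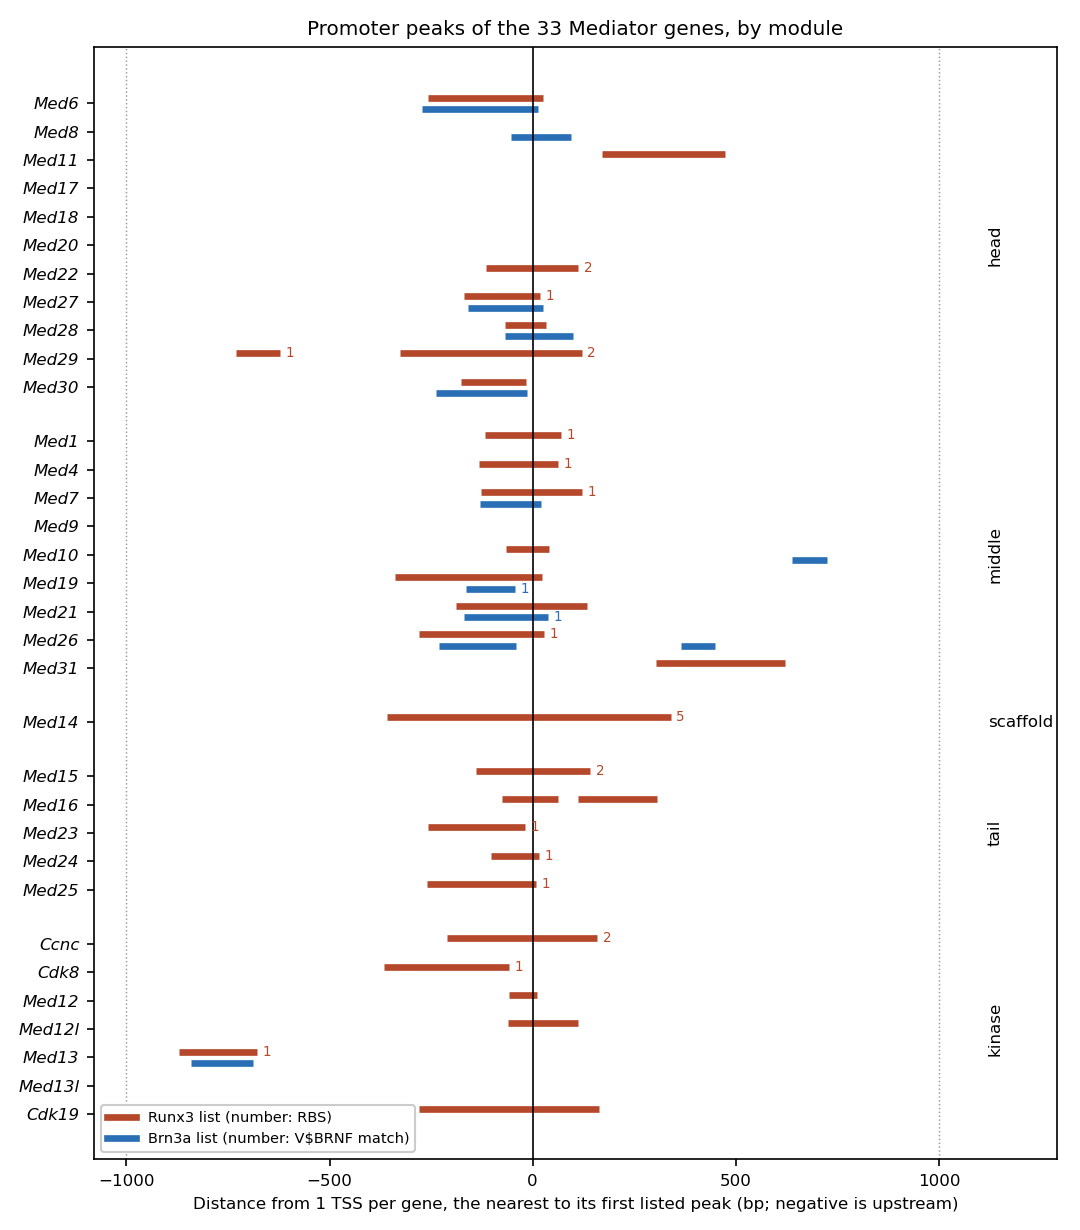
Promoter peaks of the Mediator genes, drawn as bars from start to end against distance in bp from 1 TSS per gene, the one nearest to its first Runx3-list peak or, at Med8, to its Brn3a-list peak, with genes grouped by module. Red bars are Runx3-list peaks with their number of RBS, blue bars Brn3a-list peaks with a 1 where V$BRNF was present. Most bars lie at the TSS, blue bars are absent from the tail (5 genes) and scaffold (1 gene), and 5 genes have no bar.

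The head held 4 of the 6 Mediator genes without a Runx3-list promoter peak. Head genes encode subunits that contact the polymerase and the general transcription factors. Runx3-list promoter peaks were found at 7 of 11 and Brn3a-list ones at 5 of 11. For this and the other modules, the shares over all protein-coding genes to set beside the counts are 36.2% and 20.7%. Med6, Med27, Med28 and Med30 were co-bound. Med11, Med22 and Med29 had Runx3 only, Med8 had Brn3a only, and the core head genes Med17, Med18 and Med20 had neither. Where Med27, Med28, Med29 and Med30 are placed in the tail, as some structural descriptions do, the head holds 3 of 7 genes with a Runx3-list promoter peak and 2 of 7 with a Brn3a-list one.

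Middle genes, whose subunits link the head to the kinase module and the elongation machinery, had a Runx3-list promoter peak in 8 of 9 and a Brn3a-list one in 5 of 9. Med7, Med19, Med21 and Med26 were co-bound. MED7 and MED21 form the hinge of the middle module and MED26 recruits elongation factors. Med10 had peaks of both lists that did not touch, with a gap of 597 bp between them. Med1, whose product binds nuclear receptors, Med4 and Med31 had Runx3 only, and Med9 had neither.

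All 5 tail genes, Med15, Med16, Med23, Med24 and Med25, had a Runx3-list promoter peak, beside 36.2% of all protein-coding genes. A Brn3a-list one was found at 0 of 5, beside 20.7%. With Med27 to Med30 counted as tail these became 9 of 9 and 3 of 9. The scaffold gene Med14 had Runx3 only. Of the kinase genes, 6 of 7 had a Runx3-list peak and 1 of 7, Med13, a Brn3a-list peak. The modules hold between 1 and 11 genes, and no difference between them, or from all genes, was tested.

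The peaks sat close to the TSS. The 29 Runx3-list promoter peaks of the 27 genes (Med16 and Med29 had 2 each) had their centres at a median of 58 bp from the nearest TSS of the gene, beside 79 bp for all 8514 promoter peaks of the list. Of the Mediator peaks, 23 lay within 200 bp, and 24 of 29 centres were upstream. The same counts over all promoter peaks are not given. The Mediator peaks measured 69 bp (Med12) to 698 bp (Med14), with a median of 239 bp, beside 199 bp for all. The 12 Brn3a-list promoter peaks, of which Med26 had 2, lay at a median of 115 bp from the TSS, beside 99 bp, and measured 85 to 286 bp with a median of 160 bp, beside 177 bp.

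The values nearest the limit of 1 kb are these. Just inside were the peaks upstream of Med13, at 774 bp for Runx3 and 764 bp for Brn3a, a second Runx3-list peak at Med29 at 676 bp and the Brn3a-list peak of Med10 at 607 bp. Just outside was a Brn3a-list peak 1741 bp from the TSS of Med31, and next one 3042 bp from Med25. For the Runx3 list the first gene outside was Med20, whose nearest peak was 15.9 kb away.

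The members with peaks of both lists are given one by one. At the head gene Med6 the Runx3-list peak chr12:81594980-81595262 (283 bp, 0 RBS) and the Brn3a-list peak chr12:81594994-81595279 (286 bp, no V$BRNF) lay 115 and 130 bp upstream of the TSS, outside the gene. At Med27 the peaks chr2:29346651-29346836 (186 bp, 1 RBS) and chr2:29346661-29346845 (185 bp) lay 76 and 66 bp upstream. At Med30 they were chr15:52712267-52712426 (160 bp, 0 RBS) and chr15:52712205-52712427 (223 bp), 96 and 126 bp upstream, so that the Runx3-list peak lay inside the Brn3a-list peak. At Med28 the peaks, of 100 and 167 bp with 0 RBS, had their centres in the 5′ untranslated region, 18 bp before and 8 bp after the nearest TSS. The Brn3a-list peak was the wider of the pair at Med6, Med28 and Med30, and at Med27 it was 1 bp shorter.

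In the middle module the Runx3-list peak was the wider of each pair. At Med7 it was chr11:46436822-46437069 (248 bp, 1 RBS), beside chr11:46436821-46436970 (150 bp) for Brn3a, with centres 4 and 30 bp upstream of a TSS. At Med19 the widths were 362 bp for Runx3 (0 RBS) and 121 bp for Brn3a, and at Med21 323 bp (0 RBS) and 208 bp, all upstream of the TSS by 28 to 159 bp. At Med26 the Runx3-list peak chr8:72548243-72548550 (308 bp, 1 RBS) took in the Brn3a-list peak chr8:72548312-72548499 (188 bp). The RBS of the Med26 peak, printed above, lay 18 bp upstream of the TSS and outside the Brn3a-list peak. At Med10 the peaks measured 106 bp (chr13:69809776-69809881) and 86 bp (chr13:69810479-69810564), the first in the 5′ untranslated region and the second in an intron. In the kinase module the Med13 peaks measured 190 bp (chr11:86358282-86358471, 1 RBS) and 152 bp. Med8, the gene with Brn3a only, had a peak of 148 bp without V$BRNF at chr4:118409348-118409495, in the 5′ untranslated region 20 bp downstream of a TSS.

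Co-bound peaks overlapped almost wholly. At Med13, Med19, Med21, Med26, Med28 and Med30 the shorter peak lay entirely inside the other (100% of its bases), and at Med6, Med7 and Med27 the shared part was 95.1%, 99.3% and 95.1% of the shorter peak. The centres were 9 bp (Med26) to 55 bp (Med19) apart. At Med28 both peaks began at the same base, chr5:45520228. At Med26 the second Brn3a-list peak, chr8:72547821-72547905, lay in an intron 407 bp downstream of the TSS with no Runx3-list peak over it. Of the Brn3a-list promoter peaks 9 of 12 overlapped the Runx3 list, beside 58.0% of all promoter peaks of that list. In the other direction the values were 9 of 29 (31.0%) and 31.9%.

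RBS were about as frequent in the Runx3-list promoter peaks of Mediator genes as in other promoter peaks. At least 1 RBS stood in 16 of 29 peaks (55.2%, 95% interval 37.5% to 71.6%), beside 53.1% of all promoter peaks of the list. Together they held 24 RBS, of which 8 read TGCGGC, 7 TGCGGT, 6 TGTGGC and 3 TGTGGT. Med14 had 5 in its 698 bp peak (chrX:12761734-12762431), all of them TGCGGC or TGCGGT, as the windows above show. Ccnc, Med15, Med22 and the main peak of Med29 had 2 each. The other peaks with RBS, at Cdk8, Med1, Med4, Med7, Med13, Med23, Med24, Med25, Med26, Med27 and the second peak of Med29, had 1 each. With only TGCGGT or TGTGGT counted, the words closest to the RUNX consensus, the share was 27.6%, beside 29.5%.

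The 13 peaks without an RBS were both peaks of Med16 and those of Med6, Med10, Med11, Med12, Med12l, Med19, Med21, Med28, Med30, Med31 and Cdk19. Of the 9 Runx3-list peaks that overlapped the Brn3a list, 4 (44.4%) had an RBS, and of the 20 others 12. Over all promoter peaks of the list the shares were 48.0% and 55.5%. The RBS lay at a median distance of 88.5 bp from the peak centre, with 6 of 24 within 50 bp. Of the 24, 5 were in the Med14 peak, the widest. No value over all promoter peaks is given for this distance.

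V$BRNF was present in 2 of 12 Brn3a-list promoter peaks (16.7%, 4.70% to 44.8%), those of Med19 and Med21, beside 18.8% of all promoter peaks of that list. The table gives its presence and not its position. In the regions printed above, Med19 holds 2 copies of ATTA, the core that homeodomains bind, and Med21 holds 0. The literal Brn3 word TTAATGA stood in 0 of 12 of these peaks, beside 2.51% of all. Over the 29 Runx3-list peaks it stood in 1, at Cdk19, beside 0.822%.

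Words of general promoter factors were counted in the same peaks. Each word was searched on both strands, words may share bases, and a match is a description and not a binding site. GGGCGG, the box of SP and KLF factors, stood in 24 of 29 Runx3-list promoter peaks (82.8%), beside 60.5% of all promoter peaks of the list. CCGGAA, the core bound by ETS factors, stood in 12 (41.4%), beside 23.2%. CCAAT, the box of NFY, stood in 14 (48.3%), beside 37.5%, and GCGCATGC, a word of NRF1, in 2, beside 5.32%. The Mediator peaks were wider than the others, as given above, and the part of width in these shares was not tested. Of the 13 peaks with no RBS, 12 held GGGCGG and 5 held CCGGAA. The ETS core also stood in 7 of the 16 peaks with an RBS, and the SP and KLF box in 24 of all 29 peaks. Neither word was thus confined to peaks without an RBS. The same split over all promoter peaks is not given.

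**Figure D2:**
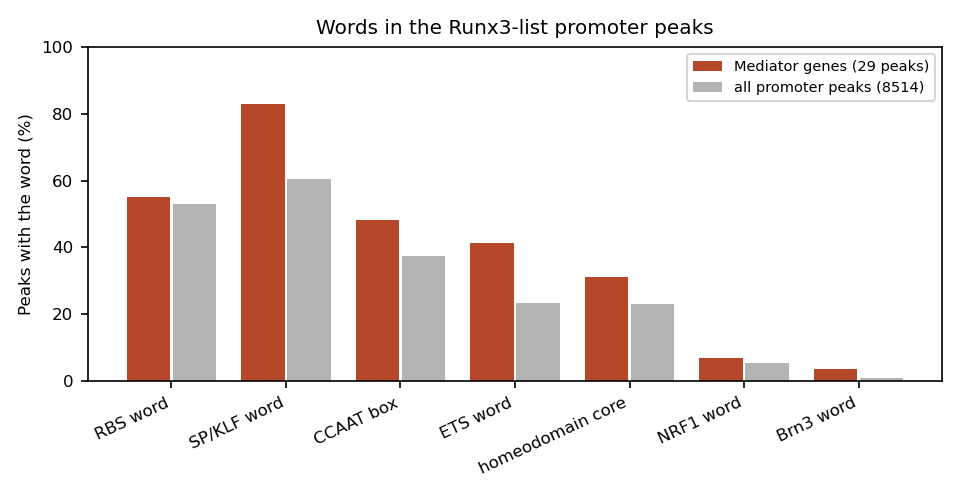
Share of Runx3-list promoter peaks with each word on either strand, in percent, for the 29 peaks of Mediator genes (red) and all 8514 promoter peaks (grey). The RBS bars are nearly level at 55.2% and 53.1%, and the bars of the SP/KLF word (82.8% and 60.5%) and the ETS word (41.4% and 23.2%) stand apart.

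An example of a peak without an RBS is the intronic Runx3-list peak of Med16, a tail gene, shown on the strand of the gene with GGGCGG in capitals.
Med16, chr10:79908593-79908787: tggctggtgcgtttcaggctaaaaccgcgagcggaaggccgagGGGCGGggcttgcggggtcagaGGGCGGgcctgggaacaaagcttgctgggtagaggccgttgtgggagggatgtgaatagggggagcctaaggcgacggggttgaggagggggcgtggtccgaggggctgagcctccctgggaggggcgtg

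The words were also counted in promoter sequences, which do not depend on the peaks. RefSeq promoters of GRCm38.p6, from 250 bases before to 50 after the start, were matched to 28 of the 33 genes, all but Cdk19, Med8, Med23, Med24 and Med30. CCGGAA stood in those of 14 of 28 (50.0%), beside 21.5% of 16515 genes, and among CpG-rich promoters, defined below, in 12 of 26 (46.2%), beside 32.4%. It stood in the promoters of Med17, Med18 and Med20, which had no promoter peak, as well as in those of Ccnc, Med15 and Med7, which had a Runx3-list peak. GGGCGG stood in 19 of 28 (67.9%), beside 51.0% of all, but among CpG-rich promoters in 18 of 26 (69.2%), beside 74.1%. CCAAT stood in 11 of 28 (39.3%), beside 42.1%. The higher share of CCAAT in the Mediator peaks was thus not seen in these promoters, and that of GGGCGG was not seen among CpG-rich ones. An RBS word stood in 14 of 28 Mediator promoters (50.0%), beside 50.0% of all. It stood in 13 of the 23 members with a Runx3-list promoter peak (56.5%), beside 56.5% of all genes with one, and in 1 of the 5 without, beside 46.0%.

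Mediator promoters were richer in CpG than those of other genes, and promoter peaks were more frequent at CpG-rich promoters in general. For each gene the ratio of observed to expected CpG was taken over 1000 bp around its outermost TSS. Its median was 0.759 for Mediator genes and 0.561 for all genes, and 30 of 33 Mediator genes were in the upper 2 quartiles, here called CpG-rich. Among CpG-rich genes 59.1% had a Runx3-list promoter peak, beside 24 of 30 (80.0%) of the Mediator genes. For the Brn3a list the values were 32.4% and 10 of 30 (33.3%), and for co-bound peaks 22.5% and 9 of 30. The 3 Mediator genes outside, Med10, Med15 and Med24, all had a Runx3-list promoter peak. At Med10 and Med15 it lay at a TSS other than the outermost, and their TSSs span 7519 and 10070 bp. The 5 genes without a promoter peak were all CpG-rich, and Med13l had the highest ratio of the group at 1.06.

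The shares of Mediator lay within the range of those of other complexes of the transcription machinery and of cohesin, which differed among themselves. A Runx3-list promoter peak was found at 11 of 13 TAF genes of TFIID (84.6%), 12 of 14 Integrator genes (85.7%) and 6 of 7 genes of cohesin and its loader (85.7%). Elongation factors had 8 of 11 (72.7%), general transcription factors 12 of 18 (66.7%) and RNA polymerase II subunits 7 of 13 (53.8%). Over these 76 genes the share was 73.7%, and Mediator at 81.8% lay inside their range. For the Brn3a list the 76 genes had 44.7% and Mediator 33.3%, with Integrator highest at 9 of 14 (64.3%) and RNA polymerase II subunits lowest at 4 of 13 (30.8%). Co-bound promoter peaks were found at 31.6% of the 76 genes and at 27.3% of the Mediator genes. None of these differences was tested.

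**Figure D3:**
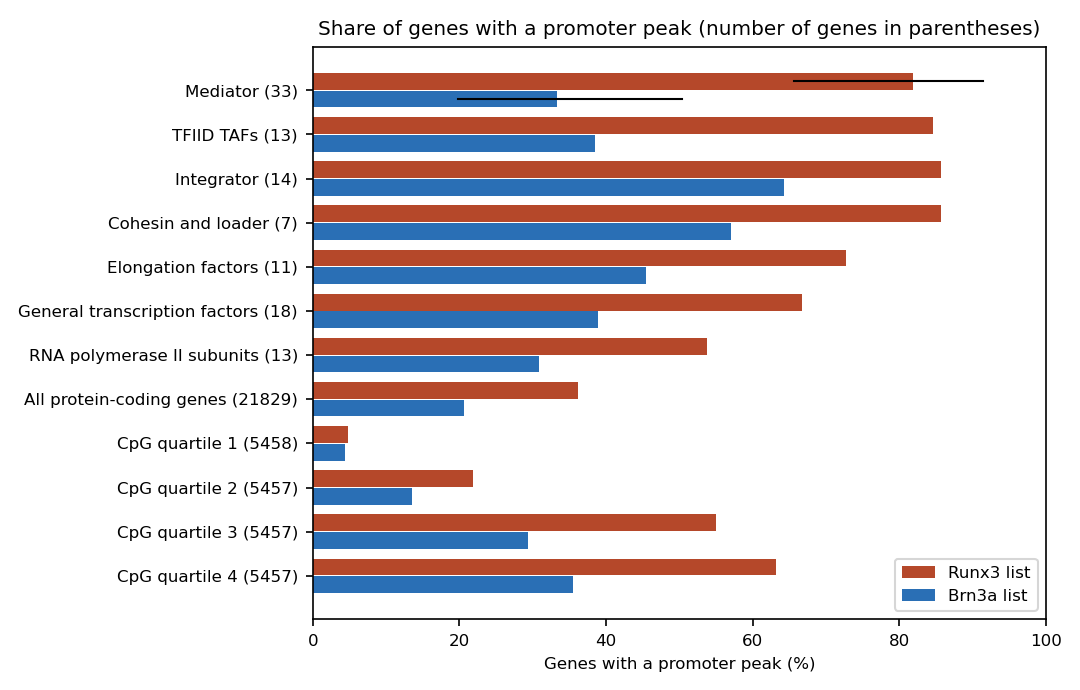
Share of genes with a promoter peak of the Runx3 list (red) and the Brn3a list (blue), in percent, for Mediator, other complexes, all protein-coding genes and quartiles of CpG ratio. Black lines are Wilson 95% intervals of the Mediator shares. Mediator, at 81.8% and 33.3%, lies among the other complexes and above all genes at 36.2% and 20.7%.

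Some Mediator promoters are shared with another gene. In 5 of 33 (15.2%, beside 9.86% of all genes) another protein-coding gene began on the opposite strand within 1 kb upstream. At Med19 the neighbour is Tmx2, whose TSS was 125 bp from the centre of the Runx3-list peak, nearer than the 159 bp of Med19, whereas the Brn3a-list peak was nearest to Med19. At Med29 the neighbour is Paf1, which encodes an elongation factor, and the second Runx3-list peak was nearer to it (433 bp). The remaining genes are Med8, Med20 and Med22, with the opposite TSS 64, 90 and 87 bp away. The peak of Med8, the gene with Brn3a only, thus lay in a shared promoter, although the TSS of Med8 was the nearest to it. A peak in such a promoter cannot be given to 1 gene of the pair by position. If each peak counts only for its nearest TSS, 26 Mediator genes have a Runx3-list promoter peak and 8 a co-bound one.

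The paralogue pairs of the kinase module are set side by side, with no test of a difference. Cdk8 and Cdk19, which encode alternative kinases, both had a Runx3-list promoter peak and no Brn3a-list one. The peak of Cdk8 was 307 bp wide with 1 RBS, 212 bp upstream of the TSS, and that of Cdk19 was 443 bp wide with 0 RBS, 58 bp upstream. Med12 and Med12l, whose products activate the kinase, had Runx3-list peaks of 69 and 173 bp with 0 RBS each. The Med12l peak lay at an internal TSS, and with only the outermost TSS of each gene it no longer counted. Med13 and Med13l, which encode the link to the core complex, were the pair in different promoter classes. Med13 had a co-bound promoter region with peak centres 774 bp (Runx3) and 764 bp (Brn3a) upstream of its TSS. Med13l had no promoter peak, and its nearest peaks were 45.1 kb (Runx3) and 39.8 kb (Brn3a) from its TSS.

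The TSSs of the other genes without a promoter peak were also more than 10 kb from the nearest peak. The nearest Runx3-list peak was 15.9 kb from the TSS of Med20, 17.2 kb from Med9, 26.3 kb from Med17 and 40.8 kb from Med18. The nearest Brn3a-list peak was 10.4 kb from Med9, within an intron of that gene, 23.1 kb from Med17, 42.2 kb from Med20 and 45.9 kb from Med18. Med8, with Brn3a only, had its nearest Runx3-list peak at 28.1 kb. These genes were thus not near misses of the 1 kb limit. Among the genes with Runx3 only, the nearest Brn3a-list peak was between 1741 bp (Med31) and 125 kb (Med4) away.

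Distal peaks, those outside all promoters, lay in the bodies of 10 Mediator genes (30.3%), beside 29.0% of all genes. The 11 Runx3-list peaks were in 7 genes and the 24 Brn3a-list peaks in 7 genes, and all but 1 of each list, which lay in untranslated regions of Med29 and Cdk19, were intronic. Med13l, without a promoter peak, had 4 intronic peaks of Runx3 and 7 of Brn3a, 93.0 to 188 kb from its TSS. At chr5:118653573-118653886 and chr5:118664098-118664346 its Runx3-list peaks held 2 and 3 RBS and shared 224 and 206 bp with Brn3a-list peaks. Med27 had 1 Runx3-list and 9 Brn3a-list peaks, and Cdk19 had 2 of each, of which 1 pair shared 109 bp. These genes are long, at 205 kb (Med13l), 178 kb (Med27) and 144 kb (Cdk19), and Med12l, the longest at 313 kb, had 1 and 2. Among genes in the upper quartile of length 67.5% had a distal peak in the body, beside 4 of 9 Mediator genes.

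Motifs were more frequent in these distal peaks than in the promoter peaks of all Mediator genes. The genes on the 2 sides differ. Med13l, with 4 of the 11 distal Runx3-list peaks, had no promoter peak. Med19 and Med21, with V$BRNF in their promoter peaks, had no distal peak in the body. A comparison within the same genes was not made. An RBS stood in 10 of 11 distal Runx3-list peaks (90.9%), beside 16 of 29 promoter peaks, and V$BRNF in 12 of 24 distal Brn3a-list peaks (50.0%), beside 2 of 12. Over all genes, distal peaks in gene bodies had an RBS in 67.1% and V$BRNF in 57.6%, so that the same order held there. Within regulatory domains of at most 1000000 bp on either side, 20 Mediator genes had a distal peak (60.6%), beside 57.8% of all genes. The domain of Med13l, 1311 kb long, held 24 Runx3-list and 32 Brn3a-list peaks, and that of Med10, 892 kb long, held 14 and 22.

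**Figure D4:**
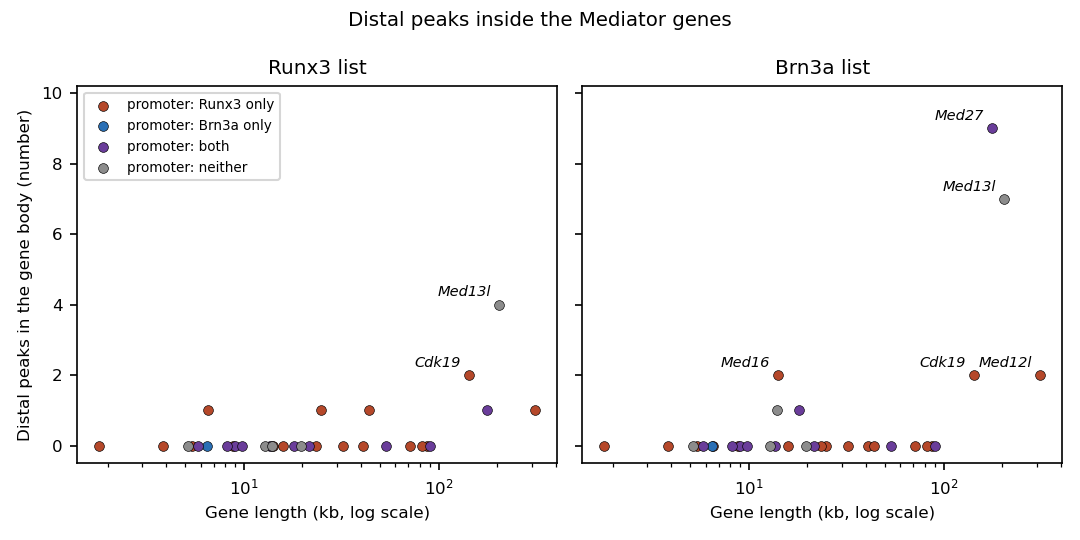
Number of distal peaks in the body of each Mediator gene against gene length in kb on a log scale, for the Runx3 list (left) and the Brn3a list (right), coloured by the promoter peaks of the gene. Med13l has the most Runx3-list peaks (4) and Med27 the most Brn3a-list peaks (9), and most genes have 0.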

How the data were processed

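Per the submitters' processing notes, cutadapt, Bowtie and MACS2 were used with GRCm38 (mm10). Their versions, how peaks were called and whether serum served as control are not given in the sources used here. Deposited were the authors' peak positions, merged over replicates per antibody, with the number of RBS or the presence of V$BRNF per peak, and no signal. The RBS number equalled the count of the 4 words on either strand in 25883 of 25883 nuclear peaks, so that positions were read as counted from 1. The table for acetylated histone held the positions of the Runx3 table and was not used, and 2 mitochondrial peaks were left out.

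Positions were compared with GENCODE M21 and the GRCm38 sequence using scipy 1.17.1, pandas 2.3.3, numpy 2.4.6 and matplotlib 3.10.9 under Python 3.11.15. Genes without a protein-coding transcript were left out. Assignment of peaks to genes was checked on simulated peaks. Members, gene lists and alternatives were chosen with earlier results of these data known, and no test was run. The text names every member, gives positions or values for members with peaks of both lists, with Brn3a only, with most RBS in their module, without a promoter peak or in a paralogue pair, and gives counts for other complexes.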

Additional observations from a re-analysis of the deposited data

How the results depend on the processing

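The Runx3-list count of 27 Mediator genes ranged from 21 to 27 over promoters within 500 or 2000 bp, wider peaks only, 1 TSS per gene, peaks with any base within 1 kb and the nearest TSS only. Of 35 alternatives for the main counts and shares, 29 stayed within 1.5 times the count or inside the 95% interval of the share. With the wider peaks of each list the Brn3a-list count fell to 5 (beside 11.9% of all genes), and the counts for both lists and for co-bound peaks to 4 each (beside 7.50% and 7.09%), so that the shares over all genes fell as well. The share with an RBS was 27.6% with the words ending in T only, and the share with a Brn motif was 0.0% with TTAATGA in place of V$BRNF. The count of genes with a distal peak rose to 20 with regulatory domains. Their median length was 75.2 kb, beside 18.2 kb for the gene bodies, but at Med12l and Med19 the domain was shorter than the gene. With Med27 to Med30 in the tail the Runx3-list counts were 3 (head) and 9 (tail), and the Brn3a-list counts 2 and 3. No paired analysis was possible because the lists were merged over replicates before deposition, and for the same reason no library could be left out in turn. Low or narrow peaks cannot be weighed, since the lists give no height.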
